A study of Arabidopsis thaliana with 24 samples.

Results

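Genes that keep iron soluble and move it inside the plant as complexes with nicotianamine or citrate were followed in root tips of *Arabidopsis thaliana* seedlings by RNA-seq. The 9 genes were defined by their locus identifiers, with no threshold on measured values but with earlier results of these data known: the nicotianamine synthases *NAS1* to *NAS4*, the transporters *YSL1*, *YSL2*, *YSL3* and *OPT3*, and the citrate transporter *FRD3*. Of these, 8 were among the 20450 genes of the deposited table, and *NAS3* was not analysed here. Levels are given as CPM, the reads on a gene relative to the reads of its library, scaled between libraries. Differences were tested on the log2(CPM + 1) scale with limma, a linear model fitted to all genes of the table, and a gene was called where its Benjamini-Hochberg adjusted p was under 0.05. Differences between conditions from limma, as log2 values and as folds, are those of CPM + 1 and understate the changes of low genes. Some are followed by their standard error (SE).

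Wild-type seedlings were Col-0 (CS70000), and *stop1* seedlings carry a T-DNA insertion in *STOP1* in the Col-0 background, a single SALK line. *STOP1* encodes a zinc finger transcription factor needed for tolerance of acid and aluminum. Seedlings of both genotypes, 5 days after germination, spent 16 h in 1 of 6 liquid media without agar, and every library was made from root tip sections pooled from many seedlings. The control, +Pi_pH6, was set to pH 6 with 1 mM phosphate (Pi). Pi was left out (0 mM) of -Pi_pH6, the pH was 5 in +Pi_pH5, and both changes were combined in -Pi_pH5. For +Al, the -Pi_pH5 medium received AlCl3, at 100 µM in the sample labels and at a higher concentration in the description of the study. The ++Fe medium held 0.1 mM FeSO4 and 0.1 mM Pi at pH 5, with less iron in the other media, so that it matched neither pH 5 medium in Pi. Each of the 12 conditions had 2 biological replicates, and values are given in the order replicate 1, replicate 2.

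The 24 libraries held 17027929 to 30516150 reads on genes, so that a single read was worth 0.0326 to 0.0572 CPM. *STOP1* was at 108 to 177 CPM in the 12 wild-type libraries and at 28.8 to 57.8 CPM in the 12 *stop1* libraries, without overlap. Where in the transcript the remaining reads lie was not analysed here. The study's gene list for *stop1* +Pi_pH6 was best matched by the libraries labelled *stop1* +Pi_pH5, and its list for *stop1* +Pi_pH5 by those labelled *stop1* +Pi_pH6. The labels were kept. With the 2 labels exchanged, the *stop1* values of ++Fe against the control become those against +Pi_pH5 and the reverse, and further exchanged values are given for the calls that change. The 5 leaf markers (*RBCS1A*, *LHCB1.1*, *LHCB2.1*, *LHCA1* and *RCA*) summed to 10.5 to 665 CPM, and to over 100 CPM in 5 libraries: replicate 1 of wild-type +Pi_pH6, wild-type +Al, *stop1* +Pi_pH6 and *stop1* +Pi_pH5, and replicate 2 of wild-type +Pi_pH5. Markers of the root were present in all 24 libraries, with 4 markers of epidermis and endodermis at a sum of 123.6 to 310.4 CPM and 7 of xylem and pericycle at 213.7 to 379.2 CPM.

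Nicotianamine is a small metal chelator that plants make from S-adenosylmethionine and that keeps iron, zinc and copper soluble in the cytoplasm and the phloem. YSL proteins of the oligopeptide transporter family carry metal-nicotianamine complexes across membranes, and OPT3 of the same family loads iron into the phloem, through which shoots inform roots of their iron status. FRD3 exports citrate into the root vasculature, where iron travels to the shoot as its citrate complex. In roots, the machinery of iron uptake and much of the nicotianamine machinery is known to be transcribed more in iron deficiency.

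In the reference annotation TAIR10.1 (RefSeq), *NAS1* (AT5G04950) and *NAS2* (AT5G56080) lie on chromosome 5 at 1457641 to 1459039 and 22711141 to 22712441, both on the reverse strand, and *NAS4* (AT1G56430) on chromosome 1 at 21136835 to 21138277, on the forward strand. Each of these 3 genes is a single exon. On chromosome 4 lie *YSL1* (AT4G24120) at 12524186 to 12527347, forward, and *OPT3* (AT4G16370) at 9247302 to 9250343, reverse. *YSL2* (AT5G24380) and *YSL3* (AT5G53550) lie on chromosome 5 at 8323895 to 8326705 and 21755251 to 21758950, both forward, and *FRD3* (AT3G08040) on chromosome 3 at 2566196 to 2569700, reverse. The strand setting of the counting is not given in the sources used here, and only *YSL2* of the 8 overlaps another gene, AT5G24390 on the opposite strand, so that its values are uncertain to that extent. No stretch of 50 bases in the exons of the 8 genes occurs elsewhere in the genome.

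The 300 bases before each gene's start were searched on both strands for 2 short motifs that bear on the media compared: the G-box CACGTG, bound by bHLH proteins, the family that holds the main regulators of iron deficiency, and P1BS, GNATATNC, bound by the regulators of the Pi starvation response. *OPT3* held the only G-box among the 8, 78 bases before its start. *NAS1*, *NAS2* and *NAS4*, which like *OPT3* were lower in ++Fe than in the control, held none. *YSL3*, whose levels moved least, held the only P1BS, 93 bases before its start. The 30 bases around each are shown from RefSeq TAIR10.1, on the gene's strand, with the motif in capitals, at chr4:9250404-9250433 for *OPT3* and chr5:21755147-21755176 for *YSL3*.
OPT3: gaccttcaacggCACGTGcgtctcacacgc
YSL3: atatatgtggaGTATATTCttaataattaa
A G-box stood in 7.09% and a P1BS in 6.504% of the 27443 promoter windows of that length in the genome, and the letters alone say nothing of binding.

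Per kilobase of exon, *NAS1* was the highest of the 8 genes in wild-type +Pi_pH6, with 189 and 147 CPM per kb. *NAS2*, with 56.2 and 37.6 CPM per kb, and *FRD3*, with 44.0 and 39.2, followed and overlapped. *YSL3* averaged 20.5 CPM per kb, *YSL2* 13.6, *OPT3* 11.0 and *NAS4* 10.5, and the libraries of *YSL2* overlapped those of *OPT3*, as did those of *OPT3* and *NAS4*. *YSL1* was at 0.269 CPM per kb, from 13 and 16 reads. The members also differed in how far their levels spread over the 24 libraries, from 1.77-fold between the lowest and the highest library for *YSL3* to 68.2-fold for *NAS1*.

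**Figure D1:**
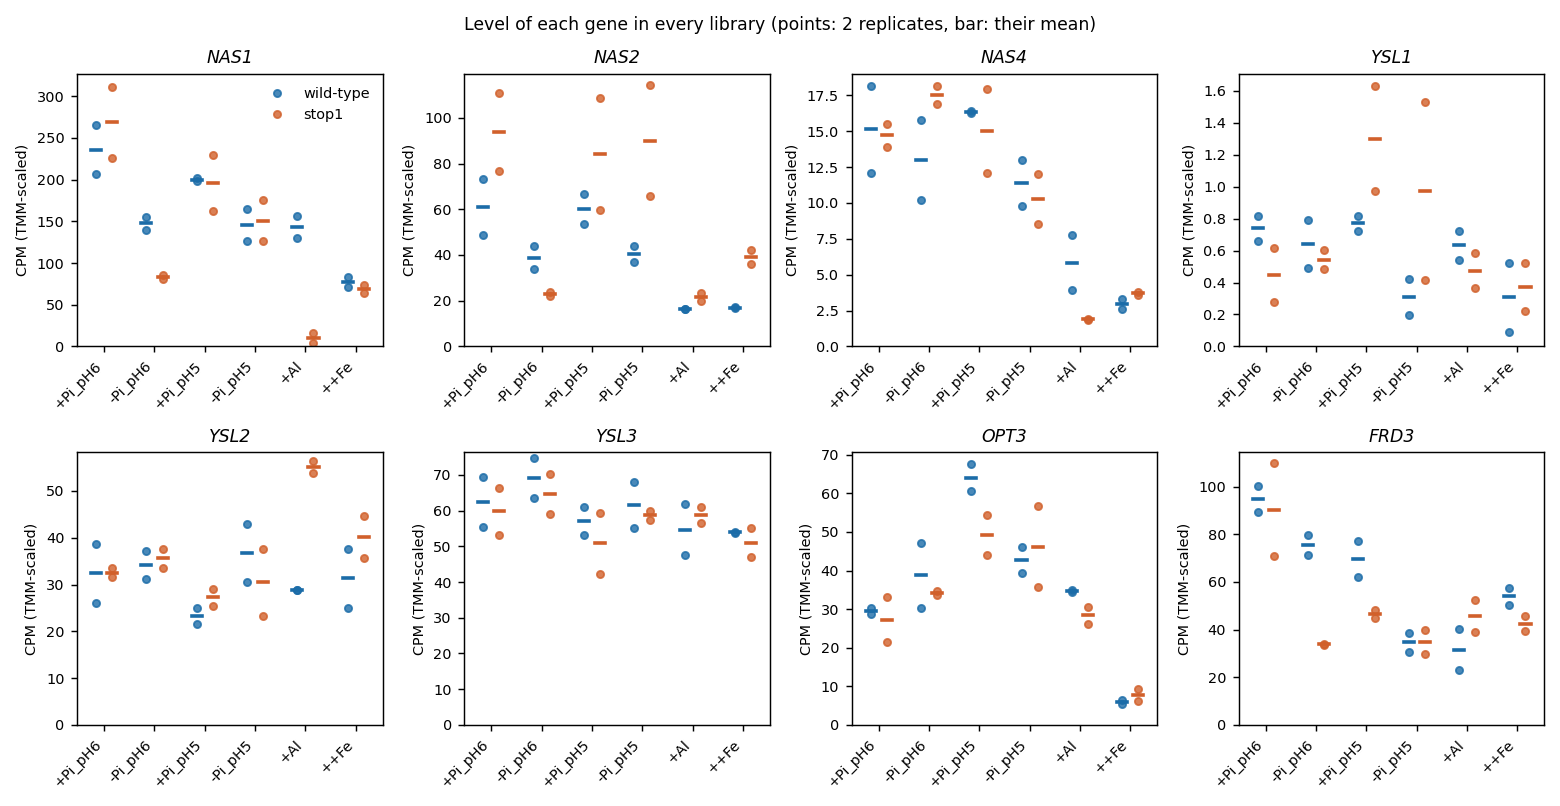
Level of each of the 8 genes (panels) in the 24 libraries, in CPM, against medium, with wild-type and stop1 in different colours and 1 point a library. NAS1 in stop1 +Al (16.0 and 4.56 CPM) stands far below its other 22 libraries (63.7 to 311 CPM), OPT3 is lowest in ++Fe in both genotypes, and YSL3 stays between 42.2 and 74.7 CPM.

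*NAS1*, the most abundant nicotianamine synthase of these root tips, was highest on average at full Pi and pH 6 and lowest by far in *stop1* roots with aluminum. In wild-type it was at 265 and 206 CPM under +Pi_pH6, 156 and 140 under -Pi_pH6, 198 and 202 under +Pi_pH5, 165 and 126 under -Pi_pH5, 157 and 130 under +Al, and 82.9 and 71.8 under ++Fe. In *stop1* it was at 311 and 226 CPM under +Pi_pH6, 81.2 and 85.9 under -Pi_pH6, 229 and 163 under +Pi_pH5, 176 and 126 under -Pi_pH5, 16.0 and 4.56 under +Al, and 73.5 and 63.7 under ++Fe. The lowest of these libraries, *stop1* +Al replicate 2, still held 94 reads on *NAS1*. In the order of the 12 condition means, 8 of the 11 neighbouring pairs of conditions overlapped, and *stop1* +Al stood apart below *stop1* ++Fe.

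With aluminum, *NAS1* in *stop1* was 15.4-fold lower than in *stop1* -Pi_pH5, the medium without AlCl3 (log2 difference -3.94, SE 0.34, limma adjusted p = 1.99e-07). In wild-type the same comparison gave -0.01 (95% interval -0.73 to 0.71, limma adjusted p = 0.994). *stop1* held 14.8-fold less *NAS1* than wild-type in +Al (log2 -3.89, SE 0.34, limma adjusted p = 4.41e-07). The difference between the genotypes in the response to AlCl3 was itself past the threshold, at -3.93 (SE 0.48, limma adjusted p = 9.76e-05), and at -4.07 (SE 0.48, adjusted p = 4.87e-05) when +Al was set against +Pi_pH6. These 4 *NAS1* results kept their call under all alternatives run, with log2 values of the response to AlCl3 in *stop1* between -4.75 and -3.14.

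With excess iron, *NAS1* was lower than in the control in wild-type (log2 -1.59, SE 0.34, limma adjusted p = 0.00306) and in *stop1* (3.84-fold, log2 -1.94, SE 0.34, adjusted p = 0.00067). Against +Pi_pH5 it was lower by 1.36 in wild-type and by 1.48 in *stop1* on the log2 scale (limma adjusted p = 0.0103 and 0.00575). Against -Pi_pH5 the differences were smaller, -0.89 in wild-type (limma adjusted p = 0.0657) and -1.11 in *stop1* (adjusted p = 0.0453). The *stop1* call in that last comparison was lost on leaving out any of 12 single libraries (limma adjusted p = 0.0505 to 0.271), and the wild-type value passed the threshold on leaving out either *stop1* +Al library (adjusted p = 0.00645 and 0.00646), since all libraries share a single estimate of the spread. The calls against +Pi_pH5 were lost on leaving out wild-type +Pi_pH5 replicate 1 or 2 or ++Fe replicate 2 (adjusted p = 0.0551 to 0.0733), or *stop1* +Pi_pH5 replicate 1 or ++Fe replicate 2 (adjusted p = 0.0564 and 0.0666). Without the 5 libraries over 100 CPM on leaf markers, the wild-type call against the control was lost as well (log2 -1.41, limma adjusted p = 0.0594), as were the calls of both genotypes against +Pi_pH5 (adjusted p = 0.0869 and 0.107) and the *stop1* call against -Pi_pH5 (0.0827). In wild-type +Al against the control, *NAS1* gave -0.70, which passed the threshold on leaving out either *stop1* +Al library (limma adjusted p = 0.0446).

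Like *NAS1*, *NAS2* was lower in ++Fe than in the control in both genotypes. It was also lower in +Al in both, where *NAS1* was called lower in *stop1* only. In +Al, both *stop1* libraries of *NAS2* lay above both wild-type ones, a difference that was not called (log2 0.37, limma adjusted p = 0.391). In wild-type it was at 73.1 and 48.9 CPM under +Pi_pH6, 43.8 and 33.7 under -Pi_pH6, 53.6 and 66.5 under +Pi_pH5, 43.9 and 37.1 under -Pi_pH5, 16.3 and 16.2 under +Al, and 16.6 and 17.1 under ++Fe. In *stop1* it was at 111 and 76.8 CPM under +Pi_pH6, 22.0 and 23.6 under -Pi_pH6, 109 and 59.6 under +Pi_pH5, 114 and 65.7 under -Pi_pH5, 23.2 and 19.7 under +Al, and 36.0 and 42.3 under ++Fe. Its lowest libraries were those of wild-type +Al and ++Fe, and the 2 replicates of *stop1* at pH 5 without metal lay far from each other.

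Against the control, *NAS2* fell in +Al by 1.81 in wild-type and by 2.06 in *stop1* on the log2 scale (SE 0.27 each, limma adjusted p = 0.000355 and 1.57e-05). Against -Pi_pH5 it fell by 1.26 in wild-type (limma adjusted p = 0.0132) and by 1.97 in *stop1* (adjusted p = 3.12e-05), and the wild-type call was lost on leaving out -Pi_pH5 replicate 1 (adjusted p = 0.127), -Pi_pH5 replicate 2 (0.0513) or +Al replicate 2 (0.0922). The difference between these responses was -0.71 (95% interval -1.53 to 0.11, limma adjusted p = 0.357). In ++Fe it fell by 1.77 in wild-type and 1.22 in *stop1* against the control (limma adjusted p = 0.0002 and 0.00497). The fall in ++Fe against -Pi_pH5 was 1.21 in wild-type and 1.13 in *stop1* (limma adjusted p = 0.00506 and 0.0125), and against +Pi_pH5 1.76 and 1.03 (adjusted p = 0.000251 and 0.0151).

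The ++Fe calls of *NAS2* in *stop1* were lost on leaving out *stop1* ++Fe replicate 1 or replicate 1 of the reference medium. The values then were -1.11 and -0.96 against the control (limma adjusted p = 0.0551 and 0.0852), -1.02 and -0.74 against -Pi_pH5 (0.108 and 0.194), and -0.91 and -0.60 against +Pi_pH5 (0.108 and 0.207). The wild-type call against -Pi_pH5 was lost without -Pi_pH5 replicate 1 (limma adjusted p = 0.0519). In ++Fe, *NAS2* was 2.24-fold higher in *stop1* than in wild-type (log2 1.16, SE 0.27, limma adjusted p = 0.0474), a call that leaving out any of 15 single libraries ended (adjusted p = 0.05 to 0.303). In -Pi_pH6 it fell by 1.97 in *stop1* (SE 0.27, limma adjusted p = 0.000855), a call kept with the labels exchanged and under the other alternatives.

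*NAS4* was the lowest of the 3 synthases in the table and had its lowest libraries in ++Fe and in *stop1* +Al. In wild-type it was at 12.1 and 18.2 CPM under +Pi_pH6, 15.8 and 10.2 under -Pi_pH6, 16.3 and 16.4 under +Pi_pH5, 13 and 9.79 under -Pi_pH5, 7.75 and 3.91 under +Al, and 2.64 and 3.32 under ++Fe. In *stop1* it was at 13.9 and 15.5 CPM under +Pi_pH6, 18.2 and 16.9 under -Pi_pH6, 18.0 and 12.1 under +Pi_pH5, 12 and 8.54 under -Pi_pH5, 1.84 and 1.94 under +Al, and 3.57 and 3.81 under ++Fe. The libraries of both metal media lay below the other 16 in both genotypes.

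In ++Fe *NAS4* fell by 1.998 in wild-type and by 1.74 in *stop1* against the control on the log2 scale (SE 0.27 each, limma adjusted p = 4.68e-05 and 0.000194). Against -Pi_pH5 the differences were -1.63 and -1.25 (limma adjusted p = 0.000453 and 0.00546), and against +Pi_pH5 -2.13 and -1.75 (adjusted p = 3.23e-05 and 0.000221). The *stop1* call against -Pi_pH5 was lost without -Pi_pH5 replicate 1 (-1.02, limma adjusted p = 0.0849). In +Al *NAS4* was 3.86-fold lower than in -Pi_pH5 in *stop1* (log2 -1.95, SE 0.27, limma adjusted p = 2.5e-05), while wild-type gave -0.91 (adjusted p = 0.0695), which became -1.32 (adjusted p = 0.00871) without wild-type +Al replicate 1. Against the control it fell in +Al too, with log2 differences of -2.44 in *stop1* (limma adjusted p = 1.86e-06) and -1.27 in wild-type (adjusted p = 0.00512), and the wild-type call was lost without +Pi_pH6 replicate 2 (-0.997, adjusted p = 0.106) or +Al replicate 2 (-0.86, adjusted p = 0.099).

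*stop1* held 2.27-fold less *NAS4* than wild-type in +Al (log2 -1.18, SE 0.27, limma adjusted p = 0.00373). Without wild-type +Al replicate 1, which is also a library over 100 CPM on leaf markers, the difference was -0.77 (limma adjusted p = 0.0993). The genotypes' responses to AlCl3 differed by -1.04 (95% interval -1.83 to -0.25, limma adjusted p = 0.12), short of the threshold, and by -1.46 (adjusted p = 0.0161) without wild-type +Al replicate 2.

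**Figure D2:**
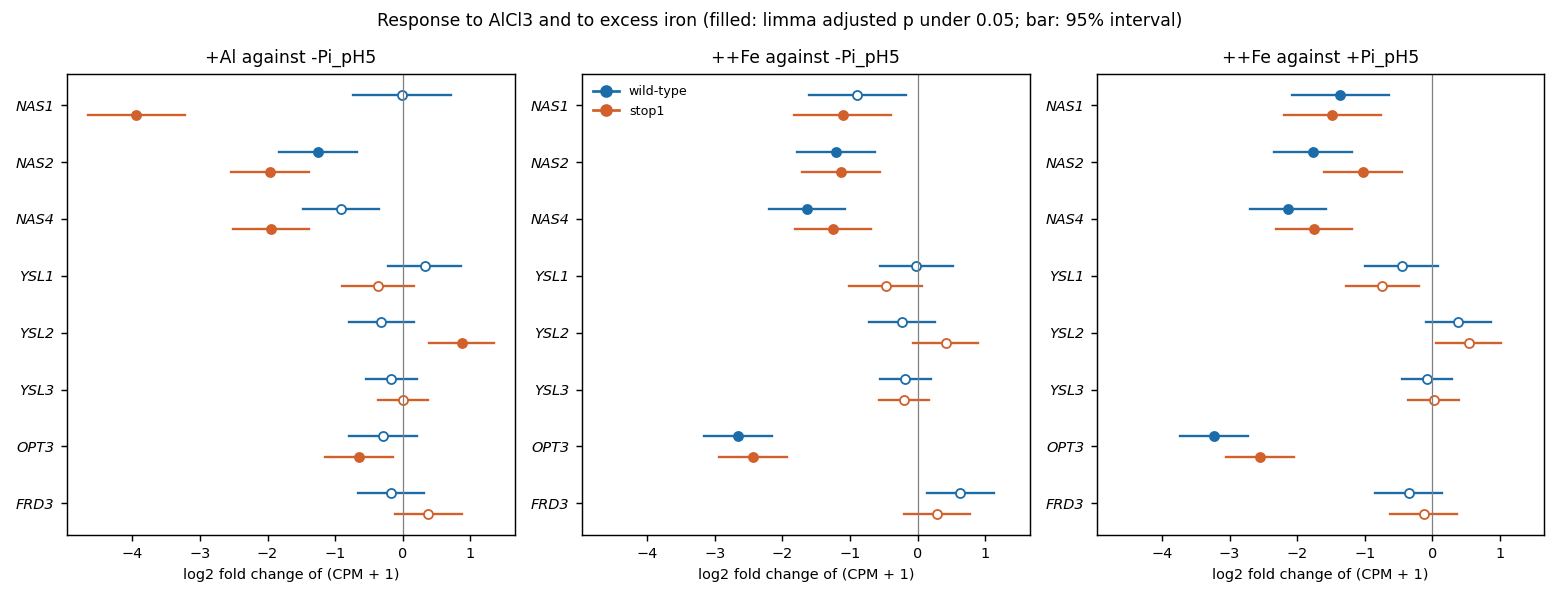
Log2 difference (points) with its 95% interval (lines) of the 8 genes in +Al against -Pi_pH5, in ++Fe against -Pi_pH5 and in ++Fe against +Pi_pH5, wild-type and stop1 in different colours, filled where limma called the gene. NAS1 in stop1 +Al (-3.94) lies apart from wild-type (-0.01), and OPT3 lies between -3.23 and -2.44 in ++Fe in both genotypes and against both media.

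Among the transporters, *OPT3*, the phloem iron transporter, had the largest fall of the 8 in ++Fe against both pH 5 media, in both genotypes. In wild-type it was at 28.8 and 30.4 CPM under +Pi_pH6, 30.3 and 47.2 under -Pi_pH6, 60.7 and 67.5 under +Pi_pH5, 39.3 and 46.1 under -Pi_pH5, 34.5 and 34.9 under +Al, and 5.47 and 6.44 under ++Fe. In *stop1* it was at 33.1 and 21.4 CPM under +Pi_pH6, 34.7 and 33.7 under -Pi_pH6, 54.3 and 44.0 under +Pi_pH5, 35.7 and 56.7 under -Pi_pH5, 26.3 and 30.5 under +Al, and 9.19 and 6.11 under ++Fe. The 4 libraries in ++Fe lay below all 20 others, and those of +Pi_pH5 were the highest in wild-type.

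In ++Fe *OPT3* was 4.41-fold lower than in the control in wild-type (log2 -2.14, SE 0.24, limma adjusted p = 8.16e-06) and 3.25-fold lower in *stop1* (log2 -1.70, SE 0.24, adjusted p = 8.48e-05). Against -Pi_pH5 it was 6.29-fold lower in wild-type and 5.41-fold lower in *stop1* (limma adjusted p = 1.35e-06 and 4.8e-06). Against +Pi_pH5 it was 9.37-fold lower in wild-type and 5.86-fold lower in *stop1* (limma adjusted p = 8.57e-08 and 1.65e-06). With the labels of *stop1* +Pi_pH6 and *stop1* +Pi_pH5 exchanged, the *stop1* differences were -2.55 against the control and -1.70 against +Pi_pH5. These 6 falls were called under all alternatives run, and the genotypes' responses differed by 0.22 against -Pi_pH5 (95% interval -0.49 to 0.93) and 0.68 against +Pi_pH5 (95% interval -0.03 to 1.39), both short of the threshold (limma adjusted p = 0.96 and 1). In +Al against -Pi_pH5, *stop1* gave a log2 difference of -0.65 (limma adjusted p = 0.0462), a call lost without any of 15 single libraries (adjusted p = 0.0502 to 0.436), and wild-type gave -0.29 (adjusted p = 0.635).

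At low pH with full Pi, *OPT3* in wild-type gave a log2 difference of 1.09 from the control (limma adjusted p = 0.139), short of the threshold, while edgeR's likelihood ratio test and DESeq2 called it higher (log2 1.12 and 1.11, adjusted p = 0.00834 and 0.00667). *stop1* +Pi_pH5 against *stop1* +Pi_pH6 gave 0.85 (SE 0.24, limma adjusted p = 0.417), a value whose sign depends on the labels of these 2 conditions. With the labels exchanged, *OPT3* in *stop1* +Al against +Pi_pH6 changed from 0.08 (limma adjusted p = 0.818) to -0.77 (adjusted p = 0.0191). *OPT3* also became called between the genotypes in +Pi_pH5 (-1.23, limma adjusted p = 0.0223) and in the interaction of genotype and +Pi_pH5 (-1.94, adjusted p = 0.0156).

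*YSL2*, a metal-nicotianamine transporter of the root, was the 1 member that rose with aluminum, in *stop1* alone by its calls. In wild-type it was at 38.7 and 26.0 CPM under +Pi_pH6, 37.1 and 31.3 under -Pi_pH6, 25.1 and 21.6 under +Pi_pH5, 42.9 and 30.5 under -Pi_pH5, 28.8 and 28.8 under +Al, and 37.6 and 25.0 under ++Fe. In *stop1* it was at 31.6 and 33.5 CPM under +Pi_pH6, 37.7 and 33.6 under -Pi_pH6, 29.1 and 25.4 under +Pi_pH5, 23.4 and 37.7 under -Pi_pH5, 56.5 and 53.8 under +Al, and 44.7 and 35.6 under ++Fe. The libraries of *stop1* +Al lay above the other 22.

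In *stop1* +Al *YSL2* was 1.83-fold higher than in -Pi_pH5 (log2 0.87, SE 0.23, limma adjusted p = 0.00768) and 1.68-fold higher than in the control (log2 0.74, SE 0.23, adjusted p = 0.0168), and wild-type gave -0.32 and -0.14 (adjusted p = 0.577 and 0.821). It was 1.88-fold higher in *stop1* than in wild-type in +Al (log2 0.91, SE 0.23, limma adjusted p = 0.0083). The responses to AlCl3 differed between the genotypes by 1.19 (SE 0.33, limma adjusted p = 0.0355). These calls rest on single libraries. The call against -Pi_pH5 was lost without *stop1* -Pi_pH5 replicate 1 (0.54, limma adjusted p = 0.151) or +Al replicate 1 (0.84, adjusted p = 0.0507), the call against the control without any of the 4 libraries compared (adjusted p = 0.0553 to 0.0842), and the difference between genotypes without wild-type +Al replicate 1 (adjusted p = 0.0527) or *stop1* +Al replicate 1 (0.0617). The difference in responses was lost without *stop1* -Pi_pH5 replicate 1, wild-type -Pi_pH5 replicate 1 or any of the 4 +Al libraries (0.85 to 1.22, limma adjusted p = 0.0554 to 0.192). Without the 5 libraries high in leaf markers, *YSL2* kept only the call against -Pi_pH5 (limma adjusted p = 0.105 against the control, 0.0805 between genotypes and 0.151 for the difference in responses).

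*YSL3*, which acts with *YSL1* in delivering metal-nicotianamine complexes to veins and seeds, was the steadiest member, with 42.2 CPM in its lowest library, 74.7 in its highest and a median of 58.3. No comparison called it, and none of its neighbouring conditions stood apart from each other. In ++Fe against -Pi_pH5 it gave -0.18 (95% interval -0.55 to 0.20) in wild-type and -0.20 (95% interval -0.58 to 0.17) in *stop1*, so that changes of over about 1.5-fold lie outside these intervals. *YSL1* had 2 to 32 reads a library, with a lowest, median and highest level of 0.0927, 0.561 and 1.63 CPM, and limma with all 24 libraries called it in no comparison. In *stop1* ++Fe against +Pi_pH5 it gave -0.74 (limma adjusted p = 0.0541), while edgeR's likelihood ratio test called it (log2 -1.75, adjusted p = 0.0425), as did limma with scaling by library size only (-0.76, adjusted p = 0.0444). The value also passed the threshold without either wild-type ++Fe or either *stop1* -Pi_pH5 library (limma adjusted p = 0.0278 to 0.0457), and in *stop1* +Al against -Pi_pH5 it gave -0.78 (adjusted p = 0.042) without *stop1* -Pi_pH5 replicate 2. At that depth only large changes of *YSL1* would be detectable.

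*FRD3*, the citrate exporter of the root vasculature, was lower than in the control in both metal media and without Pi at pH 5. In wild-type it was at 100 and 89.3 CPM under +Pi_pH6, 71.5 and 79.8 under -Pi_pH6, 77.2 and 62.1 under +Pi_pH5, 30.8 and 38.7 under -Pi_pH5, 23.1 and 40.1 under +Al, and 57.6 and 50.5 under ++Fe. In *stop1* it was at 110 and 70.8 CPM under +Pi_pH6, 34.1 and 33.4 under -Pi_pH6, 48.2 and 44.7 under +Pi_pH5, 40.0 and 29.9 under -Pi_pH5, 52.5 and 39.1 under +Al, and 39.3 and 45.8 under ++Fe. The wild-type libraries of both pH 5 media without Pi, with and without AlCl3, lay below the other wild-type media.

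In wild-type *FRD3* was 2.69-fold lower in -Pi_pH5 than in the control (log2 -1.43, SE 0.23, limma adjusted p = 0.00393) and 3.04-fold lower in +Al (log2 -1.60, SE 0.23, adjusted p = 0.000254). AlCl3 added no called change to this, with -0.17 (95% interval -0.67 to 0.32) in wild-type and 0.38 (95% interval -0.11 to 0.87) in *stop1* against -Pi_pH5 (limma adjusted p = 0.806 and 0.246). In ++Fe it fell by 0.80 against the control (limma adjusted p = 0.0217). The wild-type call in +Al against the control was lost with only the libraries compared (limma adjusted p = 0.0681) and kept under the other alternatives. The call in -Pi_pH5 was lost without -Pi_pH5 replicate 1 (-1.27, limma adjusted p = 0.067), and that in ++Fe without +Pi_pH6 replicate 1, +Pi_pH6 replicate 2 or ++Fe replicate 2 (-0.88 to -0.71, adjusted p = 0.0688 to 0.126). Against -Pi_pH5, wild-type ++Fe gave 0.63 (limma adjusted p = 0.06), not called. edgeR's likelihood ratio test and DESeq2 called *FRD3* higher there (log2 0.64 each, adjusted p = 0.045 and 0.0396). The limma value passed the threshold without either wild-type +Al or either *stop1* +Pi_pH6 library, and without the 5 libraries high in leaf markers. Between the genotypes in +Al, *FRD3* passed the threshold on leaving out wild-type +Al replicate 2 (log2 0.94, limma adjusted p = 0.0103).

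In *stop1*, *FRD3* was called lower than in *stop1* +Pi_pH6 in 4 media: by 1.36 in -Pi_pH6, 1.33 in -Pi_pH5, 0.95 in +Al and 1.04 in ++Fe on the log2 scale (SE 0.23 each, limma adjusted p = 0.00558, 0.00692, 0.00407 and 0.00506). With the labels of *stop1* +Pi_pH6 and *stop1* +Pi_pH5 exchanged, these became -0.45, -0.41, -0.03 and -0.13 (adjusted p = 0.591, 0.724, 0.93 and 0.758), so that all 4 calls rest on these labels. The reverse held for ++Fe against +Pi_pH5, where *FRD3* in *stop1* gave -0.13 (limma adjusted p = 0.758) as labelled and -1.04 (adjusted p = 0.00506) with the labels exchanged, and for the interaction of genotype and +Al against the control, which became 1.57 (adjusted p = 0.00568). Leaving out *stop1* +Pi_pH6 replicate 1 (110 CPM) also ended all 4 (-1.05, -1.01, -0.63 and -0.73, adjusted p = 0.152, 0.14, 0.0856 and 0.108), leaving out the 5 libraries high in leaf markers did too (adjusted p = 0.0512 to 0.0779), as did leaving out 1 library of the treated medium: -Pi_pH6 replicate 1 or 2, -Pi_pH5 replicate 2, +Al replicate 2 or ++Fe replicate 1 (adjusted p = 0.0579 to 0.192). A comparison free of these labels, *stop1* against wild-type in -Pi_pH6, gave 2.20-fold less *FRD3* in *stop1* (log2 -1.14, SE 0.23, limma adjusted p = 0.0356), and 5 single libraries ended that call, among them wild-type -Pi_pH6 replicate 2 (-1.06, adjusted p = 0.457) and both of *stop1* -Pi_pH6 (-1.15 and -1.12, adjusted p = 0.145 and 0.353).

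**Figure D3:**
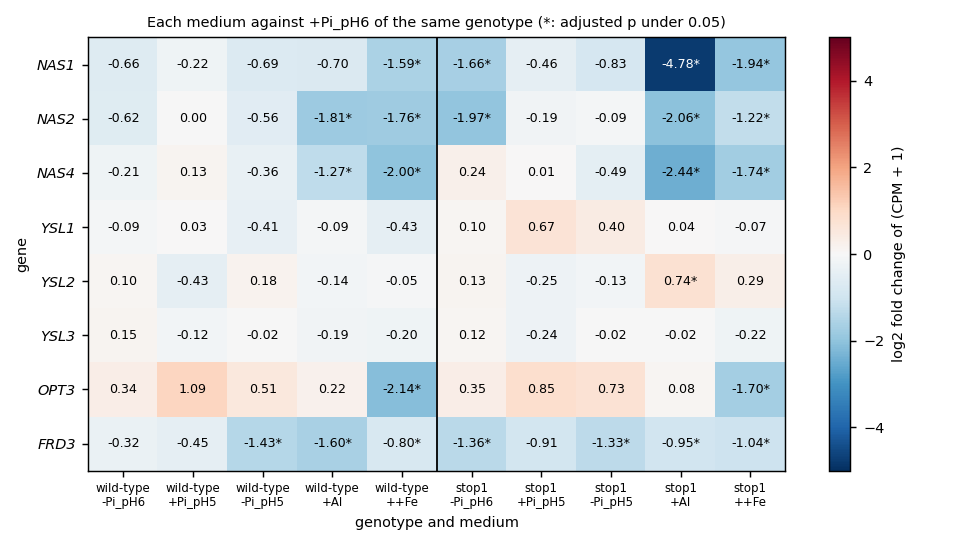
Heat map of the log2 difference of the 8 genes (rows) in each of 5 media against +Pi_pH6 (columns) in wild-type and in stop1, with the value in each cell and calls by limma marked. The called values are negative except that of YSL2 in stop1 +Al (0.74), and the most negative is that of NAS1 in stop1 +Al (-4.78).

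Counted over the members, more of them were lower than in the control in ++Fe than in any other medium, in wild-type. Against the control, 5 of 8 members were called lower in wild-type ++Fe and 0 higher, where limma called 21.7% of the 20450 genes, 9.38% lower. The same 5 genes, *NAS1*, *NAS2*, *NAS4*, *OPT3* and *FRD3*, were called lower in *stop1* ++Fe, where 14.8% of genes were called, 5.59% lower. The 2 comparisons do not share control libraries. Against -Pi_pH5, ++Fe lowered 3 of 8 in wild-type (24.2% of genes called, 12.1% lower) and 4 of 8 in *stop1* (10.9% called, 4.16% lower). Against +Pi_pH5, 4 of 8 were lower in wild-type (18.9% of genes called, 8.31% lower) and 4 of 8 in *stop1* (17.6% called, 6.93% lower). The median over the 8 members in ++Fe against -Pi_pH5 was -0.56 in wild-type and -0.79 in *stop1*, beside 0.01 and 0.00 over all genes.

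With aluminum, 3 of 8 members were called lower than in the control in wild-type (8.46% of genes called, 4.37% lower), and 4 lower and 1 higher in *stop1* (37.5% called, 19.4% lower and 18% higher). With the labels of *stop1* +Pi_pH6 and *stop1* +Pi_pH5 exchanged, *NAS1* (-4.32), *NAS2* (-1.86), *NAS4* (-2.45) and *YSL2* (0.99) were still called in *stop1* +Al, and the interaction of *YSL2* against the control became 1.13 (limma adjusted p = 0.0372). Against -Pi_pH5, 1 member was lower in wild-type, *NAS2* (4% of genes called, 1.37% lower), and 4 were lower and 1 higher in *stop1* (31% called, 15.6% lower and 15.4% higher). The median over the members was then -0.23 in wild-type and -0.51 in *stop1*, beside -0.02 and 0.00 over all genes.

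Cell type markers were called in *stop1* +Al and, at no larger a share than among all genes, in ++Fe. Against -Pi_pH5, with 15.6% of all genes called lower and 15.4% higher in *stop1*, all 4 markers of epidermis and endodermis were called lower in *stop1* +Al, among them the root hair genes *EXP7* (-2.11) and *COBL9* (-1.28), and their sum was 132 and 123.6 CPM, beside 281.9 and 305.7 in *stop1* -Pi_pH5 and 265 and 181.1 in wild-type +Al. Of the 7 xylem and pericycle markers, 1 was called lower, the potassium channel *SKOR* (-3.79, and -1.32 in wild-type), and their sum was 266.9 and 266.9 CPM against 313.7 and 330.7. Of the 5 meristem and root cap markers, 2 were lower, *SMB* (-1.12) and *BRN1* (-0.86), and of the 3 phloem markers 1 was higher, *SUC2* (1.86), with sums of 91.2 and 69.6 CPM against 41.8 and 38.3. No defining marker of these 4 lists was at 0 in *stop1* +Al, and the part of these changes in the *stop1* +Al results was not tested. In ++Fe against -Pi_pH5, the phloem marker *SUC2* was called higher in both genotypes (0.85 and 1.11 in wild-type and *stop1*), and the sum of the 3 phloem markers was 77.7 and 63.5 CPM in wild-type against 47.4 and 48.7, and 56 and 61.2 CPM in *stop1*. The other calls there were *SKOR* in wild-type (-1.11), *CASP1* in wild-type (0.48) and *SCR* in both (-0.37 and -0.34). Thus 4 of these 19 markers were called in wild-type and 2 in *stop1*, beside 24.2% and 10.9% of all genes, no larger a share in either. The part of these markers in the ++Fe results was not tested. In bulk root tips, fewer cells of a type and less RNA per cell cannot be told apart.

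In the Pi and pH media without added metal, limma called 0 to 3 of the 8 members against the control, beside small shares of all genes. In wild-type, limma called 0 of 8 in -Pi_pH6 (0.166% of genes called) and 0 of 8 in +Pi_pH5 (0.0293%), with 1 member at an unadjusted p under 0.05 in each. edgeR's likelihood ratio test and DESeq2 called 1 in +Pi_pH5, *OPT3*. In -Pi_pH5, 1 of 8 was called in each genotype, *FRD3*, lower (1.44% of genes called in wild-type, 0.963% lower, and 1.6% in *stop1*, 0.875% lower). In *stop1* -Pi_pH6, 3 of 8 were called lower, *NAS1*, *NAS2* and *FRD3* (0.998% of genes called, 0.523% lower), and the fall of *NAS1* there (log2 -1.66, SE 0.34, limma adjusted p = 0.0212) was lost with the labels exchanged (-1.20, adjusted p = 0.187) and without any of the 4 libraries compared (-1.89 to -1.43, adjusted p = 0.0539 to 0.269). In *stop1* +Pi_pH5, limma called 0 of 8 (0.0782% of genes), with 3 at an unadjusted p under 0.05, and DESeq2 called *FRD3* (log2 -0.97, adjusted p = 0.0458).

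Between the genotypes, limma called no member in +Pi_pH6, +Pi_pH5 or -Pi_pH5 (0.191%, 0.406% and 0.587% of genes called), with 1, 1 and 2 members at an unadjusted p under 0.05, and edgeR's likelihood ratio test and DESeq2 called 1, *NAS2*, in -Pi_pH5. In -Pi_pH6 it called 1 member lower in *stop1* (0.533% of genes called, 0.342% lower), in +Al 2 lower and 1 higher (20.1% called, 8.92% lower and 11.2% higher), and in ++Fe 1 higher (1.21% called, 0.318% higher). The difference between the genotypes in response was past the threshold for *NAS1*, negative, in +Al against +Pi_pH6 (8.72% of genes called, 4.27% negative) and against -Pi_pH5 (6.67% called, 3.77% negative), and for *YSL2*, positive, in +Al against -Pi_pH5 (2.89% positive). *NAS4*, negative in both, was short of the limma threshold and called by edgeR's likelihood ratio test and DESeq2. In the 6 other interactions, with -Pi_pH6, +Pi_pH5, -Pi_pH5 and ++Fe, limma called 0 of 8 members, with 2, 0, 1 and 0 of 8 at an unadjusted p under 0.05 in those against +Pi_pH6 and 0 in the 2 others, and edgeR and DESeq2 called none. Over all genes, limma called 0% in the interactions with -Pi_pH6 and +Pi_pH5, 0.0196% in that with -Pi_pH5, and 0.0489%, 0.0244% and 0.0342% in those with ++Fe against +Pi_pH6, -Pi_pH5 and +Pi_pH5.

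**Figure D4:**
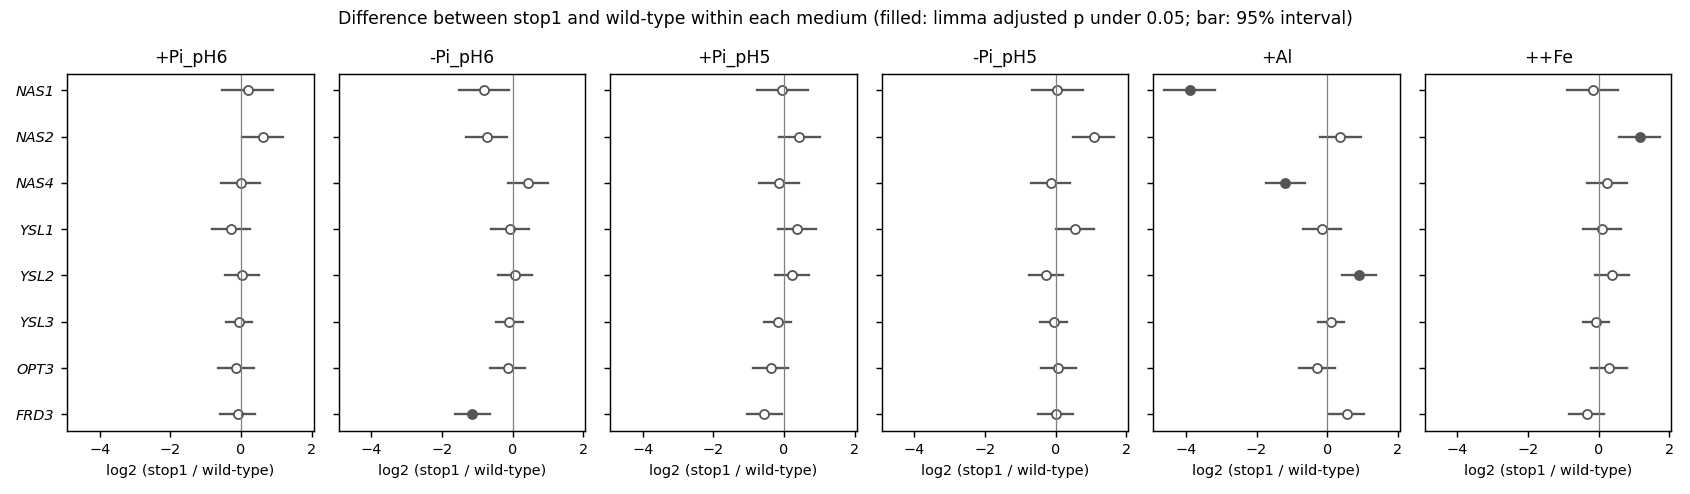
Log2 difference between stop1 and wild-type (points) with its 95% interval (lines) of the 8 genes in each of the 6 media, filled where limma called the gene. The calls in +Al are NAS1 (-3.89), NAS4 (-1.18) and YSL2 (0.91).

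Other genes of iron handling were counted from lists made for these genes. The shares of all genes called in ++Fe against -Pi_pH5 were 12.1% lower and 12.1% higher in wild-type and 4.16% lower and 6.76% higher in *stop1*. In +Al against -Pi_pH5 they were 1.37% lower and 2.63% higher in wild-type and 15.6% lower and 15.4% higher in *stop1*, and the counts from lists of 6 to 12 genes rest on few genes beside these shares. Of 24 iron deficiency uptake genes and regulators, ++Fe against -Pi_pH5 lowered 13 and raised 1 in wild-type and lowered 12 in *stop1*. They included *IRT1*, the root iron transporter (-6.09 and -7.23), and *BTSL1*, a ubiquitin ligase of iron regulation (-2.45 and -2.24), while *F6H1* of coumarin synthesis rose in wild-type (0.82). In +Al against -Pi_pH5, 3 of the 24 were lower in wild-type, with *IRT2* at -1.41 and *BTSL1* at -0.89, and 12 were lower and 1 higher in *stop1*, with *IRT1* at -6.07, the regulator *FIT* at -2.52 and *F6H1* at 0.75. Of 7 genes of iron stores, 3 rose in wild-type ++Fe and 2 in *stop1*, among them the vacuolar iron transporter *VTL5* (2.28 and 1.60), the ferritin *FER1* in wild-type (1.13) and the ferritin *FER4* in *stop1* (1.00). In *stop1* +Al *VTL5* rose (0.85), *VTL2* (-1.30) and *FER2* (-0.62) fell, and 0 of the 7 were called in wild-type +Al by limma, with 1 at an unadjusted p under 0.05.

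Of 7 genes of vacuolar and efflux transport of metals and nicotianamine, 3 fell in ++Fe in wild-type and 2 in *stop1*, beside 12.1% and 4.16% of all genes called lower. They were led by *HMA2*, which pumps zinc towards the xylem (-3.56 and -2.93), and *IREG2*, a vacuolar metal importer (-0.64 and -0.74). In +Al *IREG2* fell (-1.39 in wild-type, -2.77 in *stop1*) and *NRAMP3*, which exports iron from the vacuole, rose (1.34 and 0.59), with *HMA4* lower in *stop1* (-0.61). Of 12 genes of S-adenosylmethionine synthesis and methylthioadenosine recycling, the source and the salvage of the nicotianamine precursor, 2 rose in wild-type ++Fe, *ARD1* (0.52) and *SAM2* (0.31), and 1 fell in *stop1*, *ARD3* (-2.18), beside 24.2% and 10.9% of all genes called in these comparisons, no larger a share than among all genes in either. In +Al limma called 0 of these 12 in wild-type, with 1 at an unadjusted p under 0.05, and 3 lower in *stop1*, with *ARD3* at -2.35 and *ARD1* at -0.45.

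Of 6 citrate synthases and aconitases, the synthase gene *CSY3* rose in ++Fe in both genotypes (0.45 and 0.49) and in *stop1* +Al (0.86), where *CSY2* rose as well (0.37), and *CSY4* rose in wild-type +Al (0.35). The aconitase gene *ACO3* fell in wild-type ++Fe (-0.40). Of 9 other YSL and OPT transporters, limma called 0 in ++Fe against -Pi_pH5 in either genotype and 0 in wild-type +Al, with 1, 0 and 1 at an unadjusted p under 0.05, and called 1, *YSL8*, higher in *stop1* +Al (0.50).

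Over the 12 condition means of log2(CPM + 1), the profile of *NAS1* was most like those of *BCA4* (Pearson r = 0.98) and *SFH3* (0.98), among 15863 genes with a mean of at least 5 CPM. The profiles nearest to the others were those of AT4G17680 (0.93) and AT3G27570 (0.91) for *NAS2*, AT5G54530 (0.99) and AT2G28150 (0.99) for *NAS4*, *DGAT3* (0.95) and *TPR9* (0.95) for *OPT3*, and AT4G25030 (0.92) and AT5G60280 (0.91) for *FRD3*. For *YSL2* they were AT3G59630 (0.91) and AT1G30320 (0.88), for *YSL3* AT5G66240 (0.89) and AT5G58090 (0.89), and for *YSL1* *EMB1006* (0.86) and *TOC64-III* (0.84). Between members, the profile of *NAS1* went with that of *NAS4* (r = 0.78) and against that of *YSL2* (r = -0.82), and those of *NAS4* and *OPT3* gave 0.66. These values describe 12 condition means, which share their libraries between genes. In *stop1* +Al, *NAS1* had its lowest mean (10.3 CPM, the next 68.6) and *YSL2* its highest (55.1 CPM, the next 40.2). The correlation without that condition was not computed.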

How the data were processed

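RNA-seq values of root tips from 24 libraries were used. Per the study's methods, the authors aligned the reads to TAIR10 with HISAT2 2.1.0, counted them on genes with HTSeq 0.11.2 and scaled the counts with edgeR 3.28.0. The deposited values are this scaled signal in CPM, with library sizes adjusted by TMM. Dividing each value by that of a single read gave whole reads for 100% of the entries, within 0.001 reads. The number of columns left unused is 0. Samples were grouped by the sample labels.

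limma 3.58.1 under R 4.3.3 was applied to log2(CPM + 1), allowing for a mean-variance trend, with 12 condition means and all 24 libraries sharing a single estimate of the spread, and with Benjamini-Hochberg adjustment over 20450 genes. The tests were first run on simulated data. The alternatives were edgeR 4.0.16 (quasi-likelihood and likelihood ratio) and DESeq2 1.42.0 on the recovered reads, RLE scaling, scaling by library size only, 0.1 as pseudocount, only genes whose mean was 1 CPM or more, only the libraries compared, a replicate block, leaving out each library, and exchanged labels of 2 *stop1* conditions. Leaving out the 5 libraries with over 100 CPM on leaf markers was added after the data were seen.

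The members, the other gene lists (uptake genes, iron stores, vacuole and efflux, S-adenosylmethionine, citrate, other YSL and OPT transporters) and the markers were chosen with earlier results of these data known. All members were tested in each comparison, and the text does not give every value of a member that was not called. Genes named from each other list are at most 2 called genes a direction with the smallest p in ++Fe or +Al against -Pi_pH5. The 2 genes of most similar profile per member are named too. With 2 libraries a condition, limma's p-values set a difference of condition means against the spread between these samples, estimated over all 24 libraries. CPM of low genes carry the counting error of few reads. A result for 1 gene of the citrate list is not reported here.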

Additional observations from a re-analysis of the deposited data

Results flagged for a closer look

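Differences between the genotypes in response passed the test of the difference for 2 of the members. The response of *NAS1* to +Al, relative to +Pi_pH6, differed between *stop1* and wild-type by -4.07 on the log2 scale (limma adjusted p = 4.87e-05), and relative to -Pi_pH5 by -3.93 (adjusted p = 9.76e-05). Both *stop1* +Al libraries (16.0 and 4.56 CPM) lay below both wild-type +Al libraries (157 and 130 CPM). The response of *YSL2* to +Al relative to -Pi_pH5 differed by 1.19 (limma adjusted p = 0.0355), with *stop1* +Al at 56.5 and 53.8 CPM and wild-type +Al at 28.8 and 28.8 CPM. In -Pi_pH5 the genotypes overlapped, with *stop1* at 23.4 and 37.7 CPM and wild-type at 42.9 and 30.5 CPM. Leaving out any of 6 single libraries ended this *YSL2* call (0.85 to 1.22). Relative to +Pi_pH6 the *YSL2* responses differed by 0.88, not called (limma adjusted p = 0.115). With 2 libraries a condition, no test for deviating libraries was made.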

How the results depend on the processing

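Of 240 results (8 members in 30 comparisons), 52 were called by limma and 25 of these under every alternative run. The count of members called changed by over 1.5 times as follows, with the cause not tested. It rose from 0 to 1 in wild-type +Pi_pH5 with edgeR's likelihood ratio test (LRT) and DESeq2, in *stop1* +Pi_pH5 with DESeq2, and between the genotypes in -Pi_pH5 with LRT, DESeq2 and the replicate block. In +Al against -Pi_pH5 in wild-type it rose from 1 to 2 with LRT, DESeq2, the replicate block and without the 5 libraries high in leaf markers, and in wild-type ++Fe against -Pi_pH5 from 3 to 5 with LRT. The interaction in +Al against +Pi_pH6 rose from 1 to 2 with all edgeR and DESeq2 tests, the pseudocount of 0.1 and the replicate block, and to 3 with exchanged labels. Exchanged labels also gave 1 in place of 0 between the genotypes in +Pi_pH5 and in its interaction. With only the libraries compared it fell from 3 to 1 in wild-type +Al against the control, from 1 to 0 in *stop1* -Pi_pH5 and between the genotypes in -Pi_pH6, from 1 to 0 between the genotypes in ++Fe (also with the quasi-likelihood test and library size only), and from 2 to 1 in the interaction in +Al against -Pi_pH5. Exchanged labels gave 1 in place of 3 in *stop1* -Pi_pH6 and 0 in place of 1 in *stop1* -Pi_pH5. Without the libraries high in leaf markers the same counts were 1 and 0, and further counts fell from 5 to 3 in *stop1* +Al against the control, 4 to 2 in *stop1* ++Fe against +Pi_pH5, 3 to 1 between the genotypes in +Al, and 2 to 1 in the interaction in +Al against -Pi_pH5.

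Leaving out 1 library gave, against the control, 0 to 1 members in -Pi_pH5 in both genotypes, 1 to 3 in *stop1* -Pi_pH6, 2 to 4 and 3 to 5 in +Al, and 4 to 5 and 3 to 5 in ++Fe (wild-type, then *stop1*). Against -Pi_pH5 it gave 0 to 2 and 3 to 5 in +Al and 2 to 4 and 1 to 4 in ++Fe, and against +Pi_pH5 3 to 4 and 2 to 5 in ++Fe. Between the genotypes it gave 0 to 1 in -Pi_pH6, 1 to 4 in +Al and 0 to 1 in ++Fe, and in the interactions in +Al 1 to 3 against +Pi_pH6 and 1 to 2 against -Pi_pH5. Of the 240 results, 106 had the other sign under at least 1 alternative, 0 of them called by limma as reported. A call with the other sign came once, with exchanged labels: *OPT3* in *stop1* +Al against the control, from 0.08 to -0.77.

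Over 66 pairs of conditions the correlation of same-numbered deviations ran from -0.379 to 0.524 (median 0.126), over 0.1 in 38 and under -0.1 in 9. More pairs of conditions were thus positive than negative. The main test did not pair the libraries by replicate number, and a replicate block was run as an alternative. The replicate block ended 0 calls and added 4: *NAS4* in wild-type +Al and *NAS1* in wild-type ++Fe against -Pi_pH5 (limma adjusted p = 0.0488 and 0.0189), *NAS2* between the genotypes in -Pi_pH5 (0.0439) and the interaction of *NAS4* in +Al against +Pi_pH6 (0.0498). Depth limits *YSL1*, at 2 to 32 reads.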
